A study of Drosophila melanogaster with 52 samples.

Results

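The embryos described here were *Drosophila melanogaster* embryos laid by mothers mutant for *Hira* (genotype M-Z+ HIRA mutant, called *HIRA* maternal mutant embryos below), followed from the collection at 1-1.5 h after laying to the one at 2.5-3 h. All M-Z+ HIRA mutant libraries of these stages were taken, which gave 4 of the 52 libraries of the series, 2 biological replicates per stage. The question was which genes still switched on, and which maternal RNAs still fell, in embryos without maternal HIRA. M-Z+ means that the egg lacked the maternal product while the father carried an intact gene copy. Whether the embryos kept that copy was not measured here. The mutant alleles were null alleles made with CRISPR/Cas9. Wild-type embryos collected alongside (4 libraries, the same 2 stages) were the comparison, and 2 libraries per genotype from 0.5-1 h served as an earlier reference point. Each library was rRNA-depleted, strand-specific RNA-seq of a pool of whole embryos. By the study's own account, most mutant embryos of its late stage were halted or late in their nuclear divisions, some of them likely without any division. Only a minority had reached the nuclear cycle of the major wave. The share of such embryos in the pools sequenced here was not given. In such pooled RNA, fewer cells of a type and less RNA per cell cannot be told apart.

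HIRA is the chaperone that places the histone variant H3.3 into nucleosomes outside of DNA replication, and in flies it is required to build chromatin on the paternal genome at fertilisation. Embryos of *Hira* mutant mothers are known to develop with the maternal chromosome set, but ploidy was not measured here. The earliest fly embryo runs on RNA loaded into the egg. During the maternal-to-zygotic transition this RNA is degraded, first by factors activated with the egg and later by factors made by the embryo, while zygotic transcription starts with a minor wave and expands to a major wave as the nuclei cellularise. The 1-1.5 h and 2.5-3 h stages lie on either side of the major wave in wild-type embryos.

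*Hira* RNA was read as a check of the labels. It was at 73.6 and 73.0 CPM (reads of a gene scaled to a common library size, so that levels are relative to all RNA in the library) in the mutant libraries of 0.5-1 h, 74.8 and 67.6 CPM at 1-1.5 h, and 20.4 and 18.3 CPM at 2.5-3 h. Wild-type embryos held 176 and 165, then 122 and 123, then 10.8 and 10 CPM at the same stages. At 1-1.5 h the mutant level was 58.0% of wild type, a log2 difference of -0.79 that did not reach the call threshold of 1. At 2.5-3 h it was 186% of wild type, again not called. The alleles were not described as removing the RNA, so these levels neither settle the labels nor report on the protein. *Hira* (X:7722119-7725917, dm6) fell between the stages in both genotypes, with a log2 fold change of -1.88 ± 0.07 (SE) in the mutant.

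The 12 libraries of the 2 genotypes held 15073545 to 31579940 expected counts each, and the 4 mutant libraries of the step 16032661 to 29832882. RNA of 11 later epidermis and cuticle genes summed to 6.64 to 8.85 CPM in the mutant libraries of 1-1.5 h, and to 117 to 122 CPM in the wild-type libraries of the same stage. The muscle actin gene *Act57B* was at 0.16 and 0.10 CPM in the mutant at 1-1.5 h and at 134 and 130 CPM in wild type, and *Lcp65Ag2*, a larval cuticle gene, was at 0 in every mutant library. These later-tissue genes stood high in the wild-type libraries already at 0.5-1 h (*Act57B* at 155 and 158 CPM), so each comparison with wild type below includes libraries that carried such RNA, and its part in those comparisons was not tested. In the mutant the sums at 2.5-3 h were 177 to 207 CPM for cuticle genes and 666 to 740 CPM for 10 muscle genes. Of the 11 cuticle genes 3 were above the detection floor of 3 counts there. This list includes the transcription factor gene *grh*. The median of the 8 tested list genes was 0 and 0.05 CPM in the mutant libraries of 2.5-3 h. A second feature lay inside the mutant step. For 203 genes the 2 mutant libraries of 1-1.5 h differed by more than 0.5 on the log2 scale, in the same direction as the 2 wild-type libraries of 0.5-1 h, against 4 genes the other way. *MED26*, a Mediator subunit gene chosen here after its values were seen, was at 36.1 and 59.2 CPM in those mutant libraries, at 508 and 311 CPM at 2.5-3 h, and at 499 and 528 CPM at 0.5-1 h. *MED26* thus ended the step within or below its range at 0.5-1 h, and counts without the 203 genes are given where they matter.

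Gene expression changed widely between the stages in the mutant embryos. Of 10638 genes tested, 2969 were higher at 2.5-3 h (27.9%) and 2086 were lower (19.6%), by edgeR's quasi-likelihood test with a Benjamini-Hochberg adjusted p under 0.05 and a log2 fold change beyond 1 in size. In the wild-type embryos 3765 genes rose (35.4%) and 2359 fell (22.2%). Of the 2969 genes that rose in the mutant, 2676 (90.1%) were also higher than at 0.5-1 h, where 27.1% of all tested genes were called higher, and of the 2086 that fell, 1996 (95.7%) were also lower than at that stage, against 21.1% of all tested genes. Without the 203 genes that differed between libraries, 2851 genes rose and 2071 fell. Below, a gene is said to rise, fall or lie above or below wild type only where it was called by this rule.

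Between the 0.5-1 h and 1-1.5 h stages 219 genes rose (2.06%) and 304 fell (2.86%) in the mutant, against 956 (8.99%) and 315 (2.96%) in wild type. The 304 decreases included 152 of the 203 genes above, so that 152 stood without them.

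Gene lists were taken from a separate set of wild-type embryos, 6 libraries of the H3.3 experiment that entered no comparison here, to ask how genes of known wild-type behaviour behaved in the mutant. The switch-on list held 318 genes that were under 2 CPM at 1-1.5 h of those embryos and at 5 CPM or more at 2.5-3 h. The clearance list held 2183 genes at 10 CPM or more that fell there by more than 1 on the log2 scale, and the stable list held 1972 genes at 10 CPM or more that moved by at most 0.5.

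In the mutant embryos 303 of the 318 switch-on genes rose (95.3%, against 27.9% of all tested genes) and 0 fell. The list median was 0.42 and 0.41 CPM in the 2 mutant libraries of 1-1.5 h and 5.0 and 4.98 CPM in those of 2.5-3 h. The same medians in wild type were 1.18 and 1.26 CPM, then 10.3 and 10.2 CPM. The median log2 fold change of the list was 3.70 in the mutant, and 3.53 when the 53 genes at the floor at 1-1.5 h were set to their bound, against 0.16 over all tested genes. In wild type 317 of the 318 rose, with a median of 3.15.

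The rise in the mutant started lower and ended lower. At 1-1.5 h 199 of the 318 genes were below wild type, when 21.2% of all tested genes were below and 1.96% above, and at 2.5-3 h 177 were below and 1 above. For all tested genes the corresponding shares at 2.5-3 h were 27.7% below and 9.89% above. The median switch-on gene reached 46.6% of the wild-type level at 2.5-3 h, with quartiles of 34.8% and 67.3%. Between 25% and 50% of wild type lay 134 genes (42.1%), between 50% and 100% lay 116 (36.5%), and at or above the wild-type level lay 27 (8.49%). Under 10% of wild type lay 14 genes (4.40%). The stage-to-stage change itself differed from wild type for 99 of them, being larger in the mutant for 81 and smaller for 18; over all tested genes the change was more positive in the mutant for 1490 (14.0%) and more negative for 707 (6.65%), a split that moved to 1276 and 997 with DESeq2 size factors. In quartiles of gene span, from the shortest genes to the longest, 75 of 80, 73 of 79, 77 of 79 and 78 of 80 genes rose, and the median level was 45.4%, 49.6%, 50.1% and 37.9% of wild type.

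**Figure D1:**
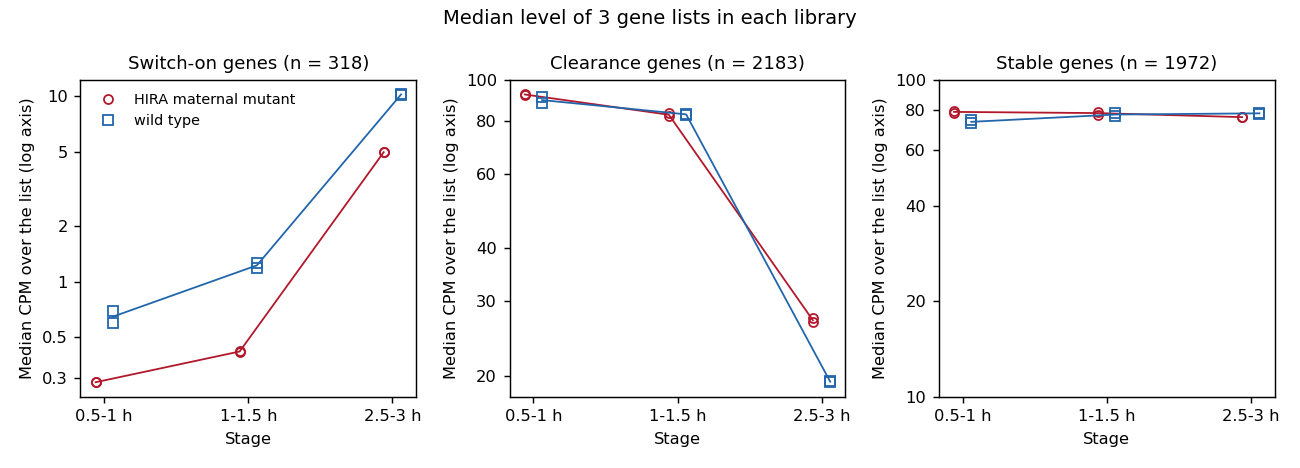
Median CPM of the switch-on, clearance and stable lists (318, 2183 and 1972 genes) in each library, on log axes, by stage. Circles are mutant libraries, squares wild-type libraries, and lines join the means of the 2 libraries. The switch-on median reached about 5 CPM in the mutant libraries of 2.5-3 h and about 10 CPM in the wild-type ones, the clearance median stopped higher in the mutant (26.7 and 27.4 CPM against 19.3 and 19.4 CPM), and the stable median stayed level.

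The largest rises in the mutant, among genes that reached 20 CPM and were not at the floor at 1-1.5 h, included developmental regulators. *E(spl)mgamma-HLH* (3R:25999851-26000761), a Notch-responsive repressor gene, went from 0.05 and 0.17 CPM to 23.4 and 24.7 CPM, a log2 fold change of 7.52 ± 0.20 (adjusted p = 3.06e-11). In wild type the same gene was at 12.4 and 13.1 CPM already at 1-1.5 h and reached 25.7 and 26.1 CPM. The mutant and wild-type levels thus lay close at the end of the step but far apart at its start, and the mutant libraries of 0.5-1 h (1.65 and 1.14 CPM) lay above those of 1-1.5 h. *Apoltp*, which encodes a lipid transfer particle protein, showed the same end point, rising from 0.42 and 0.41 CPM to 47.6 and 45.7 CPM where wild type went from 9.30 and 8.68 CPM to 47.0 and 45.3 CPM. It too stood higher in the mutant at 0.5-1 h (1.58 and 1.51 CPM), and from that start the log2 fold change was 4.92.

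Other large risers stayed below wild type. *ci*, the transcription factor of Hedgehog signalling (4:47710-57041), rose from 4.55 and 8.5 CPM to 502 and 386 CPM in the mutant, a log2 fold change of 6.04 ± 0.39, and from 99.5 and 101 CPM to 1234 and 1207 CPM in wild type, so that it ended at 36.4% of wild type. *hth*, a homeobox gene and Hox cofactor, rose from 3.23 and 4.80 CPM to 296 and 209 CPM, against 487 and 599 CPM in wild type at the end. *elav*, a neuronal RNA-binding protein gene, rose from 1.48 and 2.66 CPM to 123 and 104 CPM, against 228 and 247 CPM. In each of these the mutant libraries were all below the wild-type libraries at both stages. They stood higher at 0.5-1 h than at 1-1.5 h in the mutant (*ci* at 18.9 and 18.4 CPM, *hth* at 13.5 and 15.6 CPM, *elav* at 4.01 and 4.32 CPM), and from that start the log2 fold changes were 4.57, 4.11 and 4.75. *ci*, *hth* and *elav* were also among the 203 genes that differed between libraries. The remaining large risers, *ps*, *zfh2*, *sty* (an inhibitor of receptor tyrosine kinase signalling), *Toll-7* and the unnamed gene *CG43444*, had log2 fold changes of 5.64 to 6.15. All of these fell in the mutant between 0.5-1 h and 1-1.5 h, and from 0.5-1 h their log2 fold changes were 3.55 to 4.39.

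Segmentation genes switched on in the mutant at every tier of the network. The counts of this and the following lists stand against 27.9% of all tested genes that rose, 27.7% that ended below wild type and 14.0% with a more positive change than in wild type. Of 7 gap genes, which read the maternal gradients, 6 rose, and the median end level of the list was 60.1% of wild type. *Kr* went from 15.4 and 20.2 CPM to 158 and 147 CPM (log2 fold change 3.09), at 59.3% of wild type, *gt* from 23.4 and 23.0 CPM to 103 and 105 CPM (2.16), at 70.2%, and *kni* from 13.9 and 12.5 CPM to 85.6 and 78.7 CPM (2.64), at 60.8%. The exception was *hb*, which also has a maternal transcript: it was at 291 and 334 CPM and then 271 and 280 CPM in the mutant, while in wild type it fell from 423 and 430 CPM to 197 and 209 CPM. The 3 head gap genes *oc*, *ems* and *btd* all rose. They ended at 62%, 55% and 57% of wild type, log2 differences of -0.69, -0.87 and -0.80 that were within the call threshold.

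All 9 pair-rule genes rose, and 7 of the 9 were below wild type at 2.5-3 h, with a median of 41.0% of the wild-type level. *opa*, a timing factor of the segmentation network, rose from 12.5 and 14.0 CPM to 230 and 233 CPM, a log2 fold change of 4.12 ± 0.10, and in wild type from 31.9 and 33.6 CPM to 608 and 674 CPM. Its stage-to-stage change differed from wild type by -0.17 on the log2 scale, which was not called, so *opa* kept nearly the wild-type fold from a lower start. *ftz* (18.2 and 16.7 CPM to 140 and 137 CPM), *run* (22.7 and 22.9 CPM to 136 and 138 CPM) and *prd* (12.3 and 12.5 CPM to 108 and 108 CPM) rose by 3.00, 2.59 and 3.12 on the log2 scale and ended at 41.0%, 51.6% and 38.2% of wild type.

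All 8 segment polarity genes, which fix the borders of segments, rose too, with 7 of the 8 below wild type at the end and a median of 37.6% of the wild-type level. *ptc*, the Hedgehog receptor gene, went from 27.3 and 29.1 CPM to 392 and 401 CPM (log2 fold change 3.81), and in wild type from 81.8 and 76.0 CPM to 1063 and 1066 CPM. *nkd*, an inhibitor of Wnt signalling, rose to 322 and 306 CPM (4.59) and *mid*, a T-box gene, to 24.7 and 22.2 CPM (4.95). *wg*, the Wnt ligand gene, rose from 2.07 and 2.80 CPM to 46.1 and 50.5 CPM, 40.6% of wild type. For 6 of the 8 the change was larger in the mutant than in wild type, *wg* among them with a difference of 1.20.

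The 8 Hox genes, which give segments their identity, all rose, 5 of them to a level below wild type and with a list median of 38.6%. *Antp* was at 2.58 and 3.47 CPM at 0.5-1 h, 0.95 and 0.93 CPM at 1-1.5 h and 48.1 and 39.7 CPM at 2.5-3 h, a log2 fold change over the step of 5.53 ± 0.19. In wild type *Antp* rose from 15.7 and 13.4 CPM to 129 and 122 CPM. *abd-A* rose from 0.42 and 0.76 CPM to 26.9 and 22.6 CPM, *Ubx* from 0.32 and 0.21 CPM to 13.2 and 12.3 CPM and *Dfd* from 0.53 and 0.45 CPM to 14.7 and 13.9 CPM. For 7 of the 8 Hox genes the step was larger in the mutant than in wild type, by 2.43 for *Antp*, 2.65 for *abd-A* and 2.73 for *Ubx* on the log2 scale, whereas *Dfd* was not called in that comparison. These steps started from low levels: 2 of the 8 genes were at the floor in both mutant libraries of 1-1.5 h. In the mutant at 0.5-1 h *abd-A* was higher, at 1.50 and 1.39 CPM, as was *Ubx*, at 0.64 and 0.57 CPM.

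Dorsoventral patterning genes rose in each of the 3 tissue lists. In the mesoderm *twi* (14.5 and 13.6 CPM to 116 and 124 CPM) and *sna* (18.5 and 17.1 CPM to 107 and 110 CPM), the transcription factors that specify this layer, rose by 3.10 and 2.61 on the log2 scale and ended at 48.8% and 43.7% of wild type. Of the 8 mesoderm genes 5 rose and 2 fell; *Mes2*, which was at 146 and 160 CPM at 1-1.5 h, fell to 67.8 and 69.5 CPM, *Mef2* fell by 1.22 on the log2 scale, and *zfh1* was at 66.6 and 72.6 CPM and then 63.3 and 54.2 CPM. All 10 neuroectoderm genes rose. *sog*, a BMP antagonist gene, went from 21.8 and 25.2 CPM to 336 and 341 CPM (log2 fold change 3.84) and *SoxN*, a neural transcription factor gene, from 3.76 and 5.29 CPM to 110 and 101 CPM (4.51).

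In the dorsal ectoderm 10 of 12 genes rose and 8 of the 12 ended below wild type, with a median of 37.8%. *Ance*, a peptidase gene activated by BMP signalling, rose from 5.67 and 5.18 CPM to 70.3 and 73.1 CPM (log2 fold change 3.73) and *dpp*, the BMP ligand gene, from 4.5 and 4.8 CPM to 46.0 and 44.5 CPM (3.27). *tld*, the protease that frees that ligand, rose from 22.1 and 21.6 CPM to 116 and 114 CPM. *ush*, a GATA cofactor gene, rose from 25.2 and 27.6 CPM to 81.3 and 74.2 CPM where wild type went from 33.1 and 36.3 CPM to 215 and 213 CPM; its change was smaller than in wild type, with a difference of -1.07, which became -0.999 and was no longer called without mutant replicate 2 of 1-1.5 h.

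Of 6 cellularisation genes 5 rose and 1 fell (27.9% and 19.6% of all tested genes), none was called below wild type at 2.5-3 h, and the list median was 107% of wild type. *slam*, needed for the membrane to grow between nuclei, rose from 565 and 554 CPM to 1589 and 1699 CPM (log2 fold change 1.55), where wild type went from 754 and 776 CPM to 1411 and 1487 CPM. *halo*, which directs lipid droplet transport, rose from 34.7 and 34.1 CPM to 176 and 174 CPM, against 185 and 164 CPM in wild type at the end. *nullo*, an actin regulator that wild-type embryos express only in a short window, fell in the mutant from 23.2 and 22.4 CPM to 9.17 and 9.43 CPM, and in wild type from 31.4 and 34.0 CPM to 0.67 and 0.70 CPM, so that it was higher in the mutant at 2.5-3 h. *Sry-alpha* and *kuk* rose to 53.7% and 70.4% of wild type, log2 differences of -0.90 and -0.51 that were within the call threshold.

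Of 3 genes of the pause in the cell cycle at this time, *Z600*, known in flies as an inhibitor of mitotic entry, rose from 17.2 and 16.1 CPM to 127 and 126 CPM (log2 fold change 2.93), and *trbl*, which promotes loss of String, rose from 99.7 and 97.6 CPM to 221 and 228 CPM (1.19). *stg* itself, the activating phosphatase of mitosis, was at 495 and 590 CPM and then 294 and 283 CPM in the mutant (-0.91, not called), and it fell in wild type. Among 6 gastrulation genes 3 rose: *18w* (17.3 and 18.1 CPM to 303 and 312 CPM), *Toll-6* (4.34 and 4.42 CPM to 133 and 142 CPM) and *Tollo* (108 and 137 CPM to 368 and 368 CPM), which encode Toll-family receptors that orient cell intercalation. The step of *Toll-6* was larger than in wild type by 2.44 and that of *Tollo* smaller, with a difference of -1.22.

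Genes of sex determination and dosage compensation were activated as well, 7 of 8 of them. *Sxl*, the female switch gene, was at 262 and 275 CPM at 0.5-1 h, 100 and 143 CPM at 1-1.5 h and 640 and 557 CPM at 2.5-3 h, 85.1% of wild type. *roX1*, a noncoding RNA of the male dosage compensation complex, rose from 43.4 and 60.4 CPM to 1129 and 955 CPM (log2 fold change 4.32), 59.7% of wild type. *msl-2*, the protein subunit of that complex that females repress, rose from 11.2 and 12.8 CPM to 73.1 and 74.4 CPM and ended at 28.4% of the wild-type level. The larger step of *Sxl* in the mutant (1.08) was not called without mutant replicate 1 of 1-1.5 h. All 7 Bearded-family genes rose, *Tom* from 23.5 and 23.9 CPM to 281 and 313 CPM and *Brd* from 6.88 and 6.05 CPM to 63.8 and 59.3 CPM.

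All 4 cell death genes rose, and their median end level was 179% of wild type, the highest of the zygotic gene lists. *rpr* (3L:18397535-18398435), an inducer of apoptosis, rose from 0.79 and 1.42 CPM to 25.6 and 21.7 CPM in the mutant, a log2 fold change of 4.34 ± 0.19, and from 1.62 and 2.35 CPM to 12.6 and 12.3 CPM in wild type. *skl*, a related inducer, rose from 0.42 and 0.41 CPM to 8.16 and 7.91 CPM, 195% of wild type. *hid* (named *W* in the files) rose from 2.38 and 2.66 CPM to 42.7 and 35.7 CPM, 73.6% of wild type, and *grim* went from 0 and 0.03 CPM to 4.38 and 3.61 CPM, at least 30.4-fold higher than the floor of 3 counts per library. None of the 4 was called against wild type at 2.5-3 h, where the mutant libraries of *rpr* and *skl* lay above both wild-type libraries without overlap. The stage-to-stage change was larger in the mutant for *rpr* (1.71), *hid* (1.93) and *skl* (1.93); the call for *grim* was lost when single libraries were left out.

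**Figure D2:**
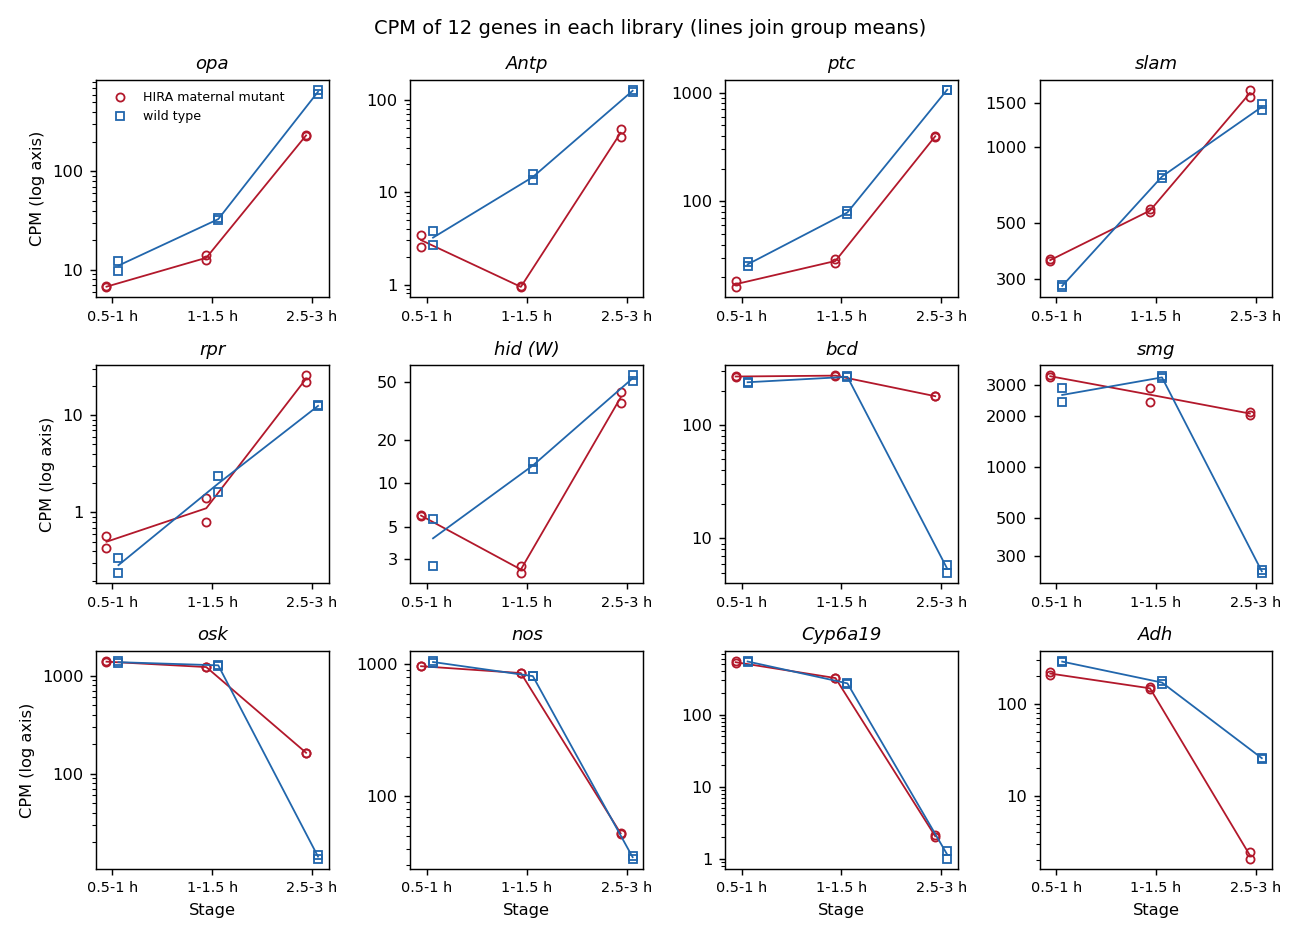
CPM of 12 genes in each library on log axes, by stage, with circles for the mutant, squares for wild type and lines joining the means of the 2 libraries. *opa*, *Antp* and *ptc* rose in the mutant to 35.1% to 37.3% of the wild-type level, *slam* and *rpr* rose to or above it, *bcd* and *smg* kept most of their RNA in the mutant only, and *nos*, *Cyp6a19* and *Adh* fell in both genotypes.

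On the switch-on list 15 of the 318 genes were not called as risen in the mutant. *GLaz*, a lipocalin gene, was at 9.43 and 10.2 CPM and then 7.22 and 6.97 CPM in the mutant. In wild type it went from 1.14 and 1.42 CPM to 16.7 and 16.1 CPM. The difference of the changes was -4.13 ± 0.15 (adjusted p = 7.97e-09). Already at 0.5-1 h *GLaz* was at 9.67 and 10.1 CPM in the mutant, against 0.81 and 0.84 CPM in wild type. *rols*, a muscle fusion gene, was at 2.86 and 2.80 CPM and then 1.42 and 1.41 CPM, against 0.66 and 0.85 CPM and then 5.71 and 7.05 CPM. The heat shock gene *Hsp70Bb*, whose reads may be shared with near-identical copies, was at 26.9 and 25.1 CPM and then 38.7 and 34.5 CPM, against 72.8 and 83.2 CPM and then 291 and 265 CPM. Also not called were *Hsp70Bbb*, *Lcp65Ag2*, *gol*, *blow*, *CG43332*, *CG17323*, *CG30428*, *CG9961*, *CR44179*, *Drsl5*, *sing* and *srw*. Of these, *Hsp70Bbb*, *srw* and *CG30428* had positive changes of 0.83, 0.71 and 0.62 with an adjusted p under 0.05, as did *Hsp70Bb* (0.50), and *srw* was not called in this wild type either (0.19). Among the others, *rols*, *blow* and *sing* are known for the fusion of muscle precursor cells.

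Over all tested genes, 1119 rose in wild type but were not called in either direction in the mutant. Their median level at 2.5-3 h was 6.23% of wild type, 626 of them were at the floor in both mutant libraries, and 870 were below wild type. Most were scarce in wild type too, with a median of 2.09 CPM there, and the stage-to-stage change differed from wild type for 170 of them on the lower side. *Osi6* and *Osi7*, members of a gene family expressed in cuticle-forming cells, were at 0 and 0 CPM and at 0.12 and 0.05 CPM in the mutant at 2.5-3 h, against 137 and 138 CPM and 113 and 106 CPM in wild type, at least 821-fold and 657-fold higher in wild type than the mutant floor. *ect*, an epidermal gene, was at 0 in both mutant libraries and at 21.9 CPM in both wild-type libraries, at least 131-fold higher. In the HIRA experiment the wild-type libraries of the earlier stages held little of them (*Osi6* at 0.09 and 0.04 CPM at 1-1.5 h). In the wild-type embryos of the H3.3 experiment, which were scaled separately, *Osi6* was at 0.17 and 0.17 CPM at 2.5-3 h, *Osi7* at 0.22 and 0.28 CPM and *ect* at 0.35 and 0.39 CPM, so that for these genes the mutant lay near one wild-type set and far below the other. The summed level of the 11 cuticle genes at 2.5-3 h also differed between the wild-type sets. It was 717 to 755 CPM here against 399 to 453 CPM in the H3.3 experiment. Most of the latter sum was *grh*, a transcription factor gene on this list, at 375 and 425 CPM in those H3.3 libraries. The part of later-tissue RNA in these differences was not tested.

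**Figure D3:**
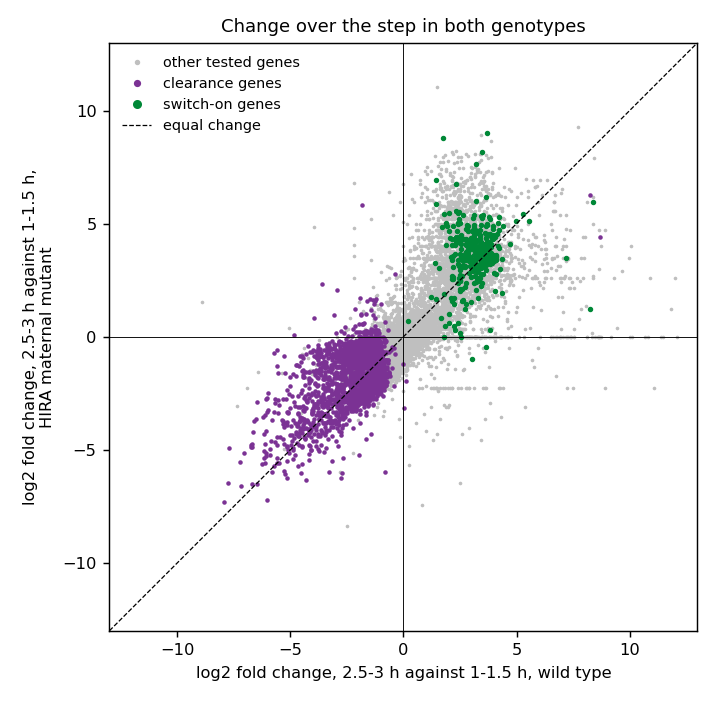
Log2 fold change from 1-1.5 h to 2.5-3 h in wild type (horizontal axis) and in *HIRA* maternal mutant embryos (vertical axis), 1 point per tested gene, with the dashed line marking equal change. The 318 switch-on genes lie high in both genotypes, with medians of 3.70 in the mutant and 3.15 in wild type, and the 2183 clearance genes spread upward from the line to values near 0 in the mutant.

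In the other direction, 1455 of the 2183 clearance genes fell in the mutant embryos (19.6% of all tested genes did), 17 rose, and the others were not called. From 0.5-1 h, 1504 fell and 4 rose in the mutant. In wild type 2057 of the 2183 fell. The list median was 82.3 and 83.5 CPM in the mutant libraries of 1-1.5 h and 26.7 and 27.4 CPM at 2.5-3 h, and in wild type 82.8 and 83.3 CPM and then 19.3 and 19.4 CPM. The median log2 fold change was -1.58 in the mutant and -1.90 in wild type. The median gene kept 33.6% of its RNA in the mutant and 26.9% in wild type.

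By the share of RNA left, 242 genes (11.1%) in the mutant kept under 10% of their level and 241 (11%) kept 75% or more, against 383 (17.5%) and 7 (0.32%) in wild type. At 2.5-3 h 698 clearance genes were above wild type and 184 below, against 9.89% and 27.7% of all tested genes. The change itself was less negative in the mutant for 679 genes and more negative for 167, against 14.0% and 6.65% of all tested genes.

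**Figure D4:**
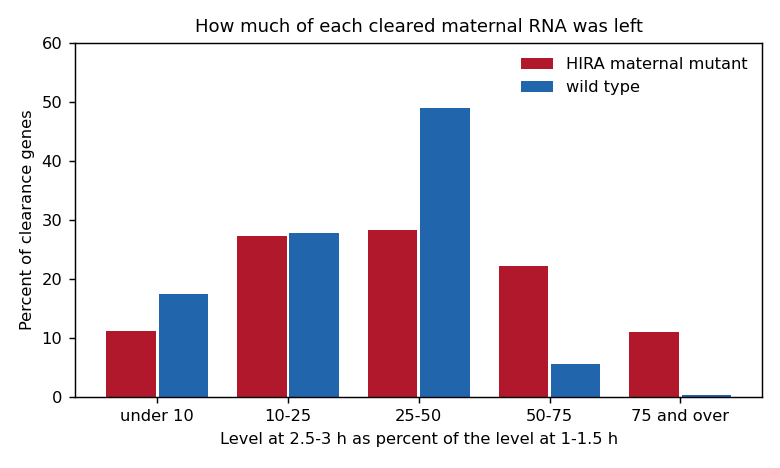
Percent of the 2183 clearance genes (vertical axis) by how much of their level at 1-1.5 h was left at 2.5-3 h (horizontal axis), with red bars for the mutant and blue bars for wild type. In wild type 49.0% of the genes kept 25% to 50% and 0.32% kept 75% or more, and in the mutant these shares were 28.2% and 11%.

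The RNAs that fell most in the mutant fell in wild type as well. *Cyp6a19* (2R:14877786-14879752), a cytochrome P450 gene, went from 320 and 327 CPM to 2.13 and 1.99 CPM, a log2 fold change of -7.29 ± 0.08 (adjusted p = 8.50e-13), and kept 0.637% of its RNA. *dhd*, the egg thioredoxin that helps to unpack sperm chromatin, went from 1380 and 1353 CPM to 13.8 and 16.3 CPM (-6.50) and in wild type from 663 and 699 CPM to 7.45 and 8.02 CPM. The unnamed genes *CG8180*, *CG4476* and *CG9896* fell by 6.61, 6.47 and 5.98 on the log2 scale.

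Of the 10 largest decreases among such genes, 5 were larger in the mutant than in wild type by the test of the difference and 1, that of *CG4476*, was smaller (1.29). *Adh* (2L:14615552-14618902), alcohol dehydrogenase, went from 152 and 144 CPM to 2.07 and 2.46 CPM in the mutant and from 176 and 165 CPM to 25.4 and 26.1 CPM in wild type, so that 1.53% was left against 15.1%. The difference of the changes was -3.29 ± 0.12 (adjusted p = 5.75e-09). *CG15093* (-3.50), *CG11883* (-2.68), *Got2*, a transaminase gene (-1.5), and *GstD1*, a glutathione transferase gene (-1.12), differed in the same direction. In the wild-type embryos of the H3.3 experiment, scaled separately, *Adh* went from 229 and 224 CPM to 8.61 and 8.80 CPM, a log2 fold change of -4.70 and thus nearer to the mutant, and *CG15093* changed by -4.68. The wild-type libraries of the later stage also held the higher sums of later-tissue markers given above, and the part of such RNA in these differences was not tested.

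Several maternal RNAs stayed in the mutant, 3 of them among the 5 largest positive differences from wild type for genes that reached 20 CPM. *bcd* (3R:6755842-6759466), the anterior determinant, was at 273 and 271 CPM and then 180 and 178 CPM in the mutant, where wild type went from 263 and 268 CPM to 5.87 and 4.95 CPM. The mutant kept 65.9% of its *bcd* RNA and wild type 2.04%, and the changes differed by 5.0 ± 0.09 (adjusted p = 2.52e-10); the mutant change alone, -0.60, was not called. *CG44005* (87.0 and 96.1 CPM, then 58.6 and 51.2 CPM; wild type 102 and 96.9 CPM, then 2.12 and 1.51 CPM) differed by 5.0 and *CG32365* (49.6 and 68.5 CPM, then 67.8 and 58.5 CPM; wild type 95.6 and 96.6 CPM, then 3.46 and 3.28 CPM) by 4.92. In all 3 the mutant libraries lay far above the wild-type libraries at 2.5-3 h, and at no earlier stage of the step. *CG14102* differed by 5.03 in another way: it rose in the mutant from 0.69 and 0.86 CPM to 3.49 and 3.25 CPM and fell in wild type from 42.3 and 42.2 CPM to 5.29 and 5.6 CPM. Its RNA was scarce in the mutant already at 0.5-1 h, at 1.36 and 1.26 CPM against 37.5 and 38.9 CPM in wild type. The cause of that early difference was not tested.

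How much a clearance RNA still fell went with its earlier course in wild type, as seen in the H3.3 experiment. These classes were set after the data were seen, by the estimated log2 change alone and without a call. For 54 genes the estimate between the 0.5-1 h and 1-1.5 h stages there was a decrease of more than 0.5 on the log2 scale. Of these, 53 fell in the mutant, with a median of -3.07 (wild type -2.45). Of 1671 with a smaller estimated decrease, 1265 fell in the mutant (75.7%), with a median of -1.84 (wild type -1.96). The other 458 had an estimated increase of any size over that early interval. Of these, 137 fell in the mutant (29.9%) while 436 fell in wild type, and the medians were -0.66 and -1.68. The last class contained 28 of the genes that differed between libraries, and without them the count was 134 of 430 and the median -0.69. In the H3.3 wild-type libraries the 10 muscle genes summed to 525 to 551 CPM at 0.5-1 h and 458 to 468 CPM at 1-1.5 h. The sum of the 11 cuticle genes went the other way, from 6.74 to 6.97 CPM up to 18 to 19.4 CPM. The part of later-tissue RNA in these classes was not tested.

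Genes of the decay machinery showed both courses. *smg* (3L:8990317-8997989), the RNA-binding protein that directs the first wave of decay, was at 2412 and 2887 CPM and then 2099 and 2010 CPM in the mutant, while wild type fell from 3393 and 3301 CPM to 250 and 238 CPM. The mutant kept 77.5% of the RNA and wild type 7.29%, a difference of 3.41 ± 0.14 (adjusted p = 1.27e-08). *me31B*, an RNA helicase of repressed RNA particles, was at 1460 and 1863 CPM and then 1360 and 1280 CPM, against 2204 and 2185 CPM and then 675 and 665 CPM. Of the 13 genes on this list 6 fell in the mutant and 10 in wild type (19.6% and 22.2% of all tested genes); *nos*, *piwi*, *eIF-4E*, *twin*, *Pop2* and *cup* were the 6, with log2 fold changes of -1.10 to -4.03. *Not1*, the scaffold of the deadenylase, was at 1102 and 1394 CPM and then 1846 and 1822 CPM.

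Germ plasm RNAs fell for the most part. Of 8 genes 6 fell in both genotypes, against 19.6% of all tested genes in the mutant. *osk* (3R:8935126-8938395), which nucleates the germ plasm, went from 1213 and 1229 CPM to 162 and 164 CPM, a log2 fold change of -2.90 ± 0.05, and in wild type from 1282 and 1261 CPM to 13.5 and 14.9 CPM. It therefore fell, but kept 13.4% against 1.12%, a difference of 3.58 ± 0.07. *nos*, the posterior determinant, went from 863 and 852 CPM to 52.9 and 52.1 CPM (-4.03), leaving 6.12% against 4.26%, and its change was not called different from wild type. *gcl*, needed to form pole cells, fell from 452 and 441 CPM to 122 and 126 CPM, by less than in wild type (1.67). *tud* was at 111.1 and 220 CPM and then 168 and 156 CPM, with the 2 libraries of the earlier stage far apart.

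Among 17 maternal axis genes 9 fell and 2 rose in the mutant, against 12 and 1 in wild type. Of all tested genes 19.6% fell and 27.9% rose in the mutant, and 22.2% and 35.4% in wild type. The change was more positive in the mutant for 7 of the 17, against 14.0% of all tested genes. *Tl*, the receptor of the dorsal pathway, was at 861 and 946 CPM and then 1034 and 1016 CPM, and *cact*, its cytoplasmic inhibitor, at 577 and 576 CPM and then 704 and 707 CPM. *dl*, the transcription factor of that pathway, fell by 3.88 and *cad* by 1.50 on the log2 scale. The 2 that rose, *ndl* and *pip*, are genes known for roles in follicle cells of the ovary. Summed RNA of 12 ovary and yolk genes was 2.51 to 3.05 CPM at 1-1.5 h and 10.4 to 10.7 CPM at 2.5-3 h in the mutant; its part in these rises was not tested.

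Of 11 egg activation and meiosis genes 4 fell in the mutant and 7 in wild type (19.6% and 22.2% of all tested genes). *png* and *cort*, which drive the egg-to-embryo transition, fell by 4.48 and 4.12 on the log2 scale, and *mtrm* and *gnu* by 3.37 and 3.64, both by less than in wild type. *CycB*, a mitotic cyclin gene, was at 4742 and 4576 CPM and then 2669 and 2709 CPM (-0.79, not called) in the mutant, where wild type fell from 4055 and 4166 CPM to 1104 and 1092 CPM. Its difference of 1.11 was under 1 with DESeq2 size factors. *CycB3* (890 and 846 CPM, then 1109 and 1126 CPM) and *polo* (802 and 793 CPM, then 775 and 807 CPM) were not called. The heat shock gene *Hsp83*, a classical target of the first decay wave, fell from 4509 and 4731 CPM to 403 and 432 CPM, to near the 430 and 452 CPM of wild type. Of all 11 textbook decay targets 5 fell in the mutant and 10 in wild type.

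The genes of the study's own factors moved as follows. *His3.3A* (192 and 187 CPM, then 289 and 289 CPM) and *His3.3B* (806 and 835 CPM, then 1208 and 1189 CPM), the genes of H3.3, changed by 0.61 and 0.55 on the log2 scale, which was not called. *BigH1*, the embryonic linker histone gene, fell from 410 and 410 CPM to 117 and 123 CPM in the mutant and from 300 and 292 CPM to 9.29 and 9.10 CPM in wild type, a difference of 3.23. *CG11399*, which encodes dPCIF1, the protein that binds HIRA, fell from 442 and 432 CPM to 156 and 158 CPM (3L:20780350-20786197; log2 fold change -1.48) and in wild type from 414 and 408 CPM to 74.7 and 73.1 CPM. Of 10 histone variant and chaperone genes 5 fell in the mutant and 0 rose, against 19.6% and 27.9% of all tested genes.

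Of 5 pioneer and GA-binding factor genes 2 rose in the mutant, a share near the 27.9% of all tested genes, *grh* by 4.52 on the log2 scale and *vfl*. *Trl*, which encodes GAF, was at 229 and 230 CPM and then 314 and 290 CPM in the mutant (0.40, not called). *vfl*, which encodes Zelda, was at 627 and 741 CPM and then 1457 and 1457 CPM (1.09), but the change was 0.975 without mutant replicate 1 of 1-1.5 h and 0.57 from 0.5-1 h, where it was at 929 and 1035 CPM. *Clamp* was at 257 and 272 CPM and then 259 and 257 CPM in the mutant, while wild type fell from 326 and 306 CPM to 151 and 131 CPM; the difference of 1.12 was under 1 with DESeq2 size factors.

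Housekeeping RNAs gave the other reference. None of 14 ribosomal protein genes was called in either genotype; *RpL3* was at 1953 and 1949 CPM and then 2147 and 2426 CPM in the mutant. Of the 1972 stable-list genes 52 rose and 123 fell, with a median log2 fold change of 0.01 and a list median of 76.1 to 79.7 CPM over the mutant libraries. Of 11 proteasome genes 5 fell in both genotypes (19.6% of all tested genes fell in the mutant), all of them of the regulatory particle, and *Rpn1* (405 and 391 CPM, then 74.2 and 83.1 CPM) fell further than in wild type (326 and 329 CPM, then 154 and 159 CPM), with a difference of -1.27.

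By chromosome, the small chromosome 4 stood out over the step. Of its 91 tested genes 59 rose in the mutant (64.8%), with a median log2 fold change of 2.17, against 27.0% to 28.8% on the other major arms. In wild type 44.0% of them rose, with a median of 0.64. The mutant libraries of 1-1.5 h were low for these genes, with a median difference from wild type of -1.44. From 0.5-1 h 41 of the 91 rose (45.1%), with a median of 0.47. Chromosome 4 also held a large share of the genes that differed between libraries, 22 of 91 (24.2%) against 1.34% to 2.09% on the other arms, and outside those genes 42 of 69 rose (60.9%), with a median of 2.49 from 1-1.5 h and 2.33 from 0.5-1 h.

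The X chromosome ended nearer to wild type than the large autosomes. At 2.5-3 h the median difference between mutant and wild type was 0.01 on the X and -0.30 to -0.45 on the autosomal arms 2L, 2R, 3L and 3R, and 17.5% of X-linked genes were below wild type against 28.6% to 31.3%. Switch-on genes on the X reached a median of 53.6% of wild type, against 42.8% to 48.4% on those arms. Of the 7 tested genes on the Y chromosome all 7 rose in wild type and were below wild type in the mutant at 2.5-3 h, where the mutant libraries ranged from 0 to 0.83 CPM and the wild-type libraries from 0.43 to 3.28 CPM. In the mutant 2 of the 7 rose over the step and 1 fell. *fdy*, a copy of an autosomal segment with which reads may be shared, went from 8.10 and 7.12 CPM to 0.83 and 0.47 CPM in the mutant and from 0.04 and 0.25 CPM to 3.12 and 3.28 CPM in wild type.

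**Figure D5:**
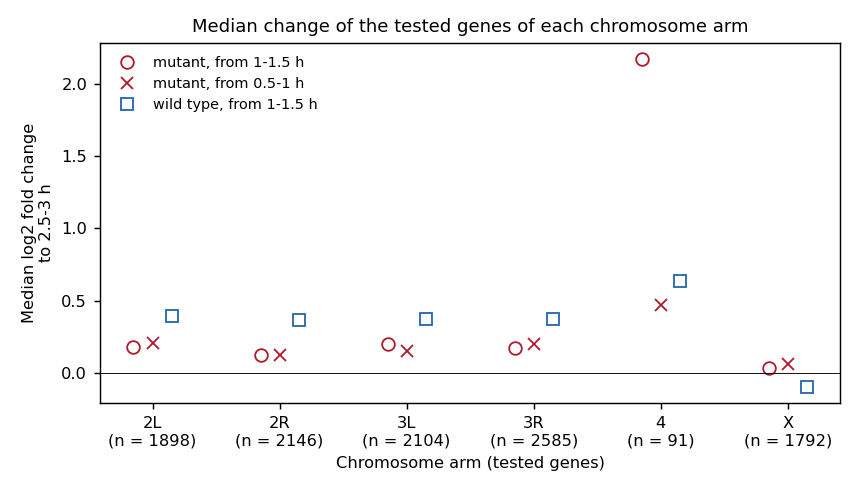
Median log2 fold change to 2.5-3 h (vertical axis) of the tested genes of each chromosome arm, with open circles for the mutant from 1-1.5 h, crosses for the mutant from 0.5-1 h and squares for wild type from 1-1.5 h. Chromosome 4 lies at 2.17 in the mutant from 1-1.5 h and at 0.47 from 0.5-1 h, and the other arms drawn lie between 0.03 and 0.20 in the mutant from 1-1.5 h. The Y chromosome, with 7 tested genes, is not drawn.

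Side by side, the calls of the mutant and of wild type met in 2633 genes that rose in both (88.7% of the mutant's and 69.9% of wild type's) and 1465 genes that fell in both (70.2% and 62.1%). A further 310 genes were called as risen and 608 as fallen in the mutant and not called in wild type; the difference between the genotypes was itself called for 143 of the 310 and 263 of the 608. The 2 genotypes were called in opposite directions for 39 genes: 26 rose in the mutant and fell in wild type, and 13 did the reverse. Of the 26, 16 were among the genes that differed between libraries and 7 were also higher than at 0.5-1 h. Those with the largest differences were mostly scarce. *gdl-ORF39* was at 0.90 and 1.07 CPM and then 3.43 and 2.36 CPM in the mutant, and went from 2.54 and 2.67 CPM to 0 in both wild-type libraries, at least 20.2-fold higher in the mutant than the wild-type floor. *CR45102*, a noncoding RNA, rose from 1.01 and 3.28 CPM to 15.7 and 8.43 CPM in the mutant, but was at 30.4 and 31.5 CPM at 0.5-1 h. *CG15611* was at 0.85 and 0.24 CPM and then 0 in both mutant libraries, and at 1.58 and 1.35 CPM in wild type at the end.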

How the data were processed

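Reads had been trimmed with Trimmomatic 0.39, aligned with STAR 2.7.10a to dm6 and counted per gene with RSEM 1.3.1 by the authors, who deposited expected counts and TPM for each library; RSEM divides reads that map to several genes. Expected counts were the values tested here, rounded to whole numbers (94.0% to 96.1% were already whole), and the TPM values the authors deposited were tabulated but not tested. Some deposited tables of other parts of the series were not used here.

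One model was fitted with edgeR 4.0.16 in R 4.3.3 to the 12 libraries of the HIRA experiment (6 groups of 2 libraries) with TMM scaling, filterByExpr (minimum count 10, minimum total 15) and the quasi-likelihood test, adjusted over 10638 of 16680 genes. A gene was called at an adjusted p under 0.05 and a log2 fold change beyond 1. The difference of the stage-to-stage changes was the interaction of genotype and stage, and a positive value means a larger rise or smaller fall in the mutant. Contrasts that share libraries are not independent of each other. Levels are CPM of TMM-scaled libraries; summed marker levels are CPM of library totals. The floor was 3 counts per library, 0.0896 to 0.215 CPM, which covers counting error only. The fitting code was also tested on simulated data. Gene positions are those of RefSeq (Release 6, the dm6 assembly), matched by transcript for 16440 genes and by name for 183.

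Named genes were the 10 largest rises and the 10 largest decreases among genes reaching 20 CPM, the 5 largest differences between genotypes each way, at most 4 of each list by mean CPM, the genes of the study's factors and up to 5 genes called in opposite directions; others named were chosen after their values were seen. The members, lists and tests were chosen with earlier results of these data known, and the switch-on, clearance and stable lists came from a fit to 6 wild-type libraries of the H3.3 experiment. Alternatives tried were other scalings, DESeq2 1.42.0, no filter, a threshold of 2, other lists, fewer libraries, each library left out, a replicate block and the 0.5-1 h stage as the start.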

Additional observations from a re-analysis of the deposited data

Results flagged for a closer look

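These results stood out because the stage-to-stage change in the *HIRA* maternal mutant differed from that in wild type by the interaction test in edgeR. Over all tested genes 1490 had a more positive change in the mutant and 707 a more negative one. On the switch-on list the counts were 81 and 18, on the clearance list 679 and 167, and on the stable list 67 and 116.

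Among RNAs that fell less in the mutant than in wild type, or were not called as fallen there, the difference of the log2 changes was 5.0 for *bcd*, 5.0 for *CG44005*, 4.92 for *CG32365*, 3.58 for *osk*, 3.41 for *smg*, 3.23 for *BigH1*, 1.68 for *Hira*, 1.67 for *gcl*, 1.12 for *Clamp*, 1.29 for *CG4476* and 1.11 for *CycB*. It was 5.03 for *CG14102*, which was under 1 CPM in the mutant at 1-1.5 h and rose there. This gene was at 1.36 and 1.26 CPM in the mutant and 37.5 and 38.9 CPM in wild type already at 0.5-1 h. Genes that fell further in the mutant had differences of -3.50 (*CG15093*), -3.29 (*Adh*), -2.68 (*CG11883*), -1.5 (*Got2*), -1.27 (*Rpn1*) and -1.12 (*GstD1*).

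Zygotic genes with a larger rise in the mutant had differences of 2.73 (*Ubx*), 2.65 (*abd-A*), 2.44 (*Toll-6*), 2.43 (*Antp*), 1.93 (*hid*), 1.93 (*skl*), 1.71 (*rpr*), 1.20 (*wg*) and 1.08 (*Sxl*). Those with a smaller rise, or none, had -4.13 (*GLaz*), -1.22 (*Tollo*) and -1.07 (*ush*). *GLaz* RNA was at 9.67 and 10.1 CPM in the mutant already at 0.5-1 h, against 0.81 and 0.84 CPM in wild type.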

How the results depend on the processing

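The medians kept their sign under every alternative run, and most counts stayed within 1.5 times. With a log2 threshold of 2 in place of 1, the mutant had 924 decreases and wild type 1067, the change differed for 661 genes upward and 131 downward, the interval before the step had 84 rises and 84 decreases, 839 clearance genes fell, 11 stable genes were called against 175, the change differed upward for 31 switch-on and 220 clearance genes, and at 2.5-3 h 41 switch-on genes were below and 204 clearance genes above wild type. Without the 203 genes that differed between libraries, an alternative added after the data were seen, the interval before the step had 152 decreases and the clearance median was -1.61. Leaving out single libraries moved the decreases before the step from 202 (without mutant replicate 1 of 1-1.5 h) to 377 (without replicate 2), the switch-on median from 3.67 to 3.84 and the clearance median from -1.59 to -1.56. A switch-on list of 46 genes at 20 CPM or more had 43 rises, a median of 3.82, 9 larger changes and 34 genes below wild type at the end. The switch-on median was 3.79 with library sizes, 3.8 with DESeq2 and 4.19 from 0.5-1 h. The clearance median was -1.49 with library sizes, -1.505 with DESeq2 size factors, -1.51 with DESeq2's test, -1.61 without the filter, -1.54 with 4 libraries only, -1.55 for genes at 50 CPM or more and -1.70 from 0.5-1 h. DESeq2 size factors shifted the median difference of the changes by -0.15. The change of *CR45102* reversed to -1.38 from 0.5-1 h. The cause of these shifts was not tested. The residuals of same-numbered replicates correlated at 0.18 for wild type of 0.5-1 h with mutant of 1-1.5 h and at -0.07 to 0.02 for every other pair of groups, so the numbers were not taken to pair the libraries; with a replicate block 2950 genes rose, 2086 fell, 302 switch-on genes rose and 1455 clearance genes fell. With 2 libraries per group the p-values rest on the spread pooled over the 6 groups, and levels at the floor could not be resolved at this depth.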
